A study of Mus musculus with 8 samples.

Results

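The genes described here are 10 scavengers of superoxide and hydrogen peroxide, namely the superoxide dismutases Sod1, Sod2 and Sod3, the catalase gene Cat, the glutathione peroxidases Gpx1 and Gpx4, and the peroxiredoxins Prdx1, Prdx3, Prdx5 and Prdx6. They were chosen by symbol as known enzymes of this kind, and each matched 1 of the 22504 gene identifiers of the expression table. Expression was measured by RNA sequencing in 8 samples from Fah-/- mice of the 129S4 background, in which the final step of tyrosine breakdown is missing and the drug NTBC, a blocker of an earlier step, prevents liver damage. C 8w mice (n = 3) had 8 weeks of moderate chronic liver injury (MCLI) on 2.5% of the curative NTBC dose, and C 12w mice (n = 2) had 12 weeks of it. C 8w + A 4w mice (n = 3), here called MCLI + SALI, had the same 8 weeks of MCLI and then 4 weeks of severe acute liver injury (SALI) without NTBC. The C 12w tissue is labelled tumor and the other tissue liver, so that weeks of injury and tumor tissue cannot be told apart between C 12w and C 8w. No Fah-/- mouse on the full NTBC dose and no mouse with intact Fah is among these samples.

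Superoxide is made when oxygen takes up a stray electron, mainly from the respiratory chain and from oxidases. Superoxide dismutases turn it into hydrogen peroxide, with copper and zinc in the cytosolic enzyme Sod1 and the secreted enzyme Sod3, and with manganese in the mitochondrial enzyme Sod2. Hydrogen peroxide is then removed by catalase in peroxisomes, by glutathione peroxidases at the cost of glutathione, and by peroxiredoxins, most of which are recharged by thioredoxin. Hepatocytes hold many mitochondria and peroxisomes and are known for high levels of these enzymes.

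The levels are FPKM values, that is fragments scaled to gene length and to the mapped fragments of the sample. They keep no read counts, so sequencing depth is unknown. The sum over all genes was between 324735 and 399342 per sample, and between 9797 and 10658 genes reached an FPKM of 1. The C 8w and C 12w samples carry one series of codes and the MCLI + SALI samples another, so this series and the MCLI + SALI group cannot be told apart. In the 5 samples of the first series Gapdh was at most 0.247, Ppia at most 0.533 and Alb listed at 0, while in MCLI + SALI they were at least 68.2, 761 and 12946. The extract protocol in the labels speaks of retina, but 8 of 10 retina markers stayed under an FPKM of 1 in all samples, and 6 of the 7 hepatocyte markers were above 80 in every sample, the exception being Alb. Fah ranged from 15.6 to 16.8 in C 8w, from 13.5 to 14.4 in C 12w and from 5.02 to 6.36 in MCLI + SALI. These Fah reads do not check the knockout, since the part of the gene that was removed is not given in the sources used here.

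All 10 genes were expressed in every sample, the lowest value being 3.19 for Sod3 in a MCLI + SALI sample. Together they held between 1.09% and 1.84% of the summed FPKM. Gpx1 was the highest of the 10 in 7 samples and Cat in C 12w replicate 3. Gpx1 ranked between 10 and 35 among all genes of a sample and Cat between 26 and 66, whereas Gpx4 ranked anywhere between 47 and 3073.

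**Figure D1:**
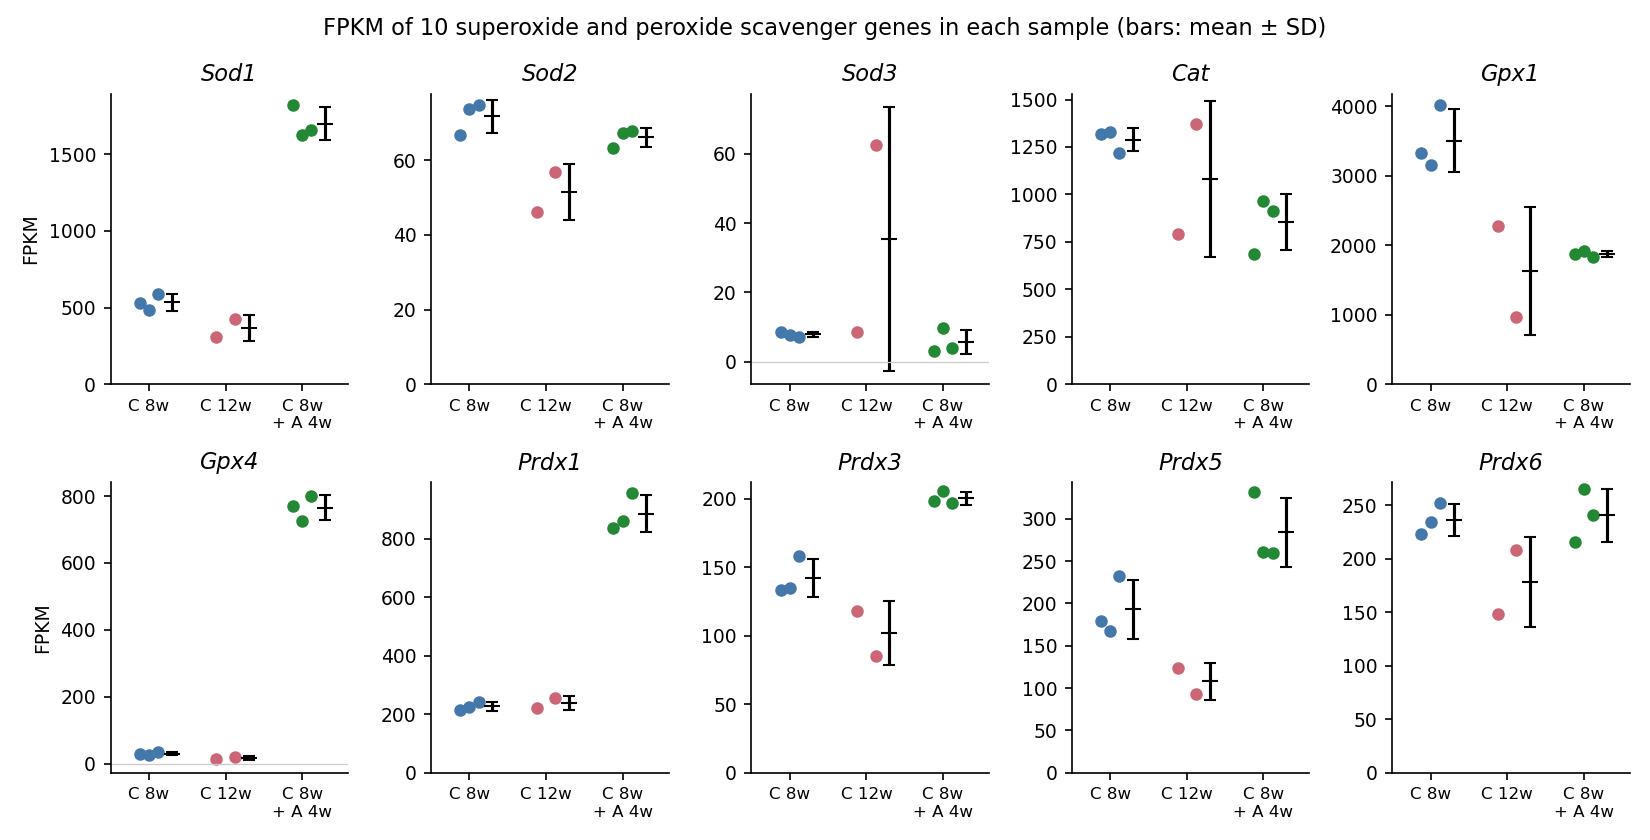
FPKM of each of the 10 genes (vertical axes, each starting at or just below 0) in every sample of C 8w, C 12w and C 8w + A 4w (MCLI + SALI), with points for samples and bars for the group mean ± SD. Sod1, Gpx4, Prdx1, Prdx3 and Prdx5 lie higher in all 3 MCLI + SALI samples than in all 5 others, and the pair of C 12w samples lies far apart for Sod3, with values of 8.49 and 62.4.

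Sequences of the genes that changed most are given first, because several of them also occur elsewhere in the genome. Each transcript was divided into its 50-base windows, and a window was counted as shared if it also occurred, on either strand, in a transcript of another gene of the GENCODE M21 annotation (GRCm38). In the principal transcript, 68.9% of the windows of Gpx4 were shared, 29.7% of Prdx5, 23.1% of Sod1, 10.9% of Prdx1, 1.43% of Sod2 and 0.299% of Prdx6. Sod3, Cat, Gpx1 and Prdx3 shared none. Counted over all transcripts of the gene, the shares were 34.7% for Gpx4, 21.04% for Sod2, 15.5% for Prdx5, 8.81% for Prdx1 and 3.42% for Sod1. Within the coding part the shares were 74.5% for Gpx4, 44.3% for Prdx1 and 32.9% for Sod1. The windows of Gpx4 matched mainly the pseudogene Gpx4-ps2, those of Sod1 the gene model Gm8566, and those of Prdx1 mainly Gm21399 and Gm7204. Values of these copies were not analysed here. A 50-base stretch of coding sequence that is identical in the gene and its copy is shown for each of the 3 genes, because a read lying within it matches both. It is in lower case and 5′ to 3′.
Gpx4, shared with Gpx4-ps2: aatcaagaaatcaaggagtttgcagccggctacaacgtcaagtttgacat
Prdx1, shared with Gm21399 and Gm7204: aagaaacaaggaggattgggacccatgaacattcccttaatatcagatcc
Sod1, shared with Gm8566: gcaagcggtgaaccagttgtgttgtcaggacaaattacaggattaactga

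The longest runs shared in this way were 314 bases in Gpx4, 146 in Prdx1 and 122 in Sod1. The shared windows of Prdx5 lie outside its coding part. They belong to Trmt112, a methyltransferase cofactor gene on the opposite strand, whose exons overlap 409 of the 2139 exon bases of Prdx5. How the authors assigned reads that match more than 1 gene is not given in the sources used here, so the levels of Gpx4, Prdx1, Sod1, Prdx5 and Sod2 are uncertain to that extent.

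Gpx1 and Gpx4 are selenoproteins. Their active site holds selenocysteine, which is written into the messenger RNA as a TGA codon that would otherwise end translation. The bases around this codon (capitals), at codon 47 of Gpx1 and codon 73 of Gpx4, are shown because this codon ties both genes to the selenium supply described further on.
Gpx1: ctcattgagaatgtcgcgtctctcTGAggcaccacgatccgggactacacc
Gpx4: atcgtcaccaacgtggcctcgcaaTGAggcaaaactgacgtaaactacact

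The first comparison, MCLI + SALI against C 8w, sets livers after 4 further weeks without NTBC beside livers after MCLI alone, which also differ in the series of codes. Values were compared as log2(FPKM + 1) with limma over the 10244 genes that reached an FPKM of 1 in 4 or more samples, and a gene with a Benjamini-Hochberg adjusted p under 0.05 over all of them was called. All 10 scavengers passed this filter. Of them 5 rose (Sod1, Gpx4, Prdx1, Prdx3 and Prdx5), 1 fell (Gpx1) and 4 did not pass the test. After median-ratio scaling 3 were higher and 2 lower, and 3 were called, all of them higher, without C 8w replicate 1 or 2 or any 1 of the MCLI + SALI samples. Among all genes tested 39.4% were called, 25.3% higher and 14.1% lower. The median log2 fold change was 0.26 over the scavengers and 0.12 over all genes. The groups did not overlap for 7 scavengers, and for 61.4% of all genes tested. The balance of all calls shifted with the scaling, from 2591 higher and 1443 lower on the values as deposited to 2001 and 2059 after median-ratio scaling, 1934 and 2171 after quantile normalization, and 1755 and 1524 after scaling to the same summed FPKM.

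**Figure D2:**
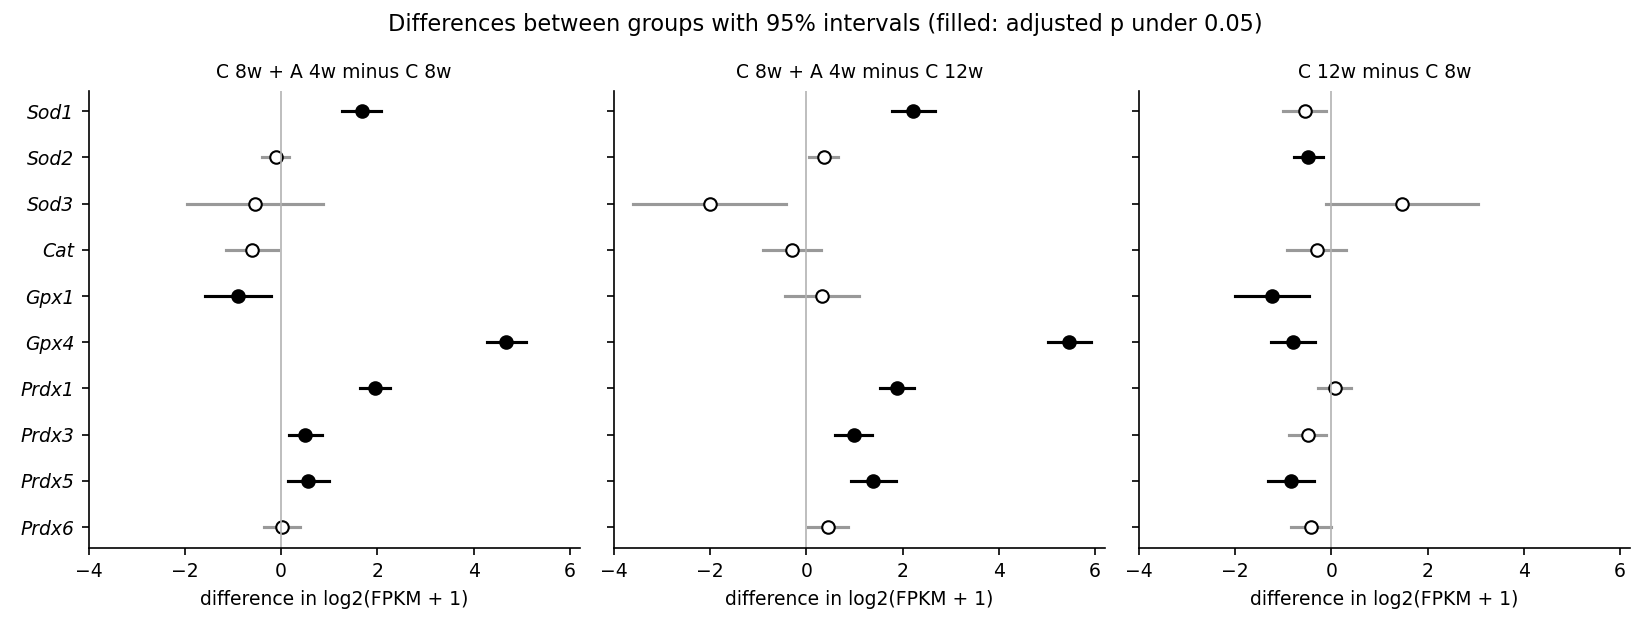
Difference in log2(FPKM + 1) of each gene for the 3 comparisons (horizontal axes), with 95% intervals from limma and filled points for an adjusted p under 0.05. Gpx4 lies farthest to the right in both comparisons of MCLI + SALI, at 4.68 and 5.47, and the 4 genes called between C 12w and C 8w all lie left of 0.

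Gpx4, the peroxidase that reduces lipid peroxides inside membranes, changed most. Its FPKM was 27.7, 24.9 and 34.9 in C 8w and 770.5, 724 and 799 in MCLI + SALI. The lowest MCLI + SALI sample was far above the highest C 8w sample, and the group means of 29.2 ± 5.16 (SD, n = 3) and 765 ± 37.8 (SD, n = 3) differed 26.2-fold. On the log2 scale it rose by 4.68 ± 0.18 (standard error), with a limma adjusted p = 3.6e-07. Errors of log2 fold changes are standard errors throughout. Gpx4 has the highest share of sequence held in common with another gene, and the part of that in its change was not tested.

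Prdx1, the abundant cytosolic peroxiredoxin, was at 213, 226 and 244 in C 8w and at 838, 862 and 957 in MCLI + SALI. These ranges were well apart, with means of 228 ± 15.3 (SD, n = 3) and 886 ± 63.1 (SD, n = 3) and a log2 fold change of 1.95 (error 0.14, limma adjusted p = 1.96e-05). Sod1, which dismutates superoxide in the cytosol, was at 528, 484 and 590.1 in C 8w and at 1819, 1622 and 1659 in MCLI + SALI. All 3 of the latter exceeded all 3 of the former, and the log2 fold change was 1.67 (error 0.17, limma adjusted p = 0.000193). Gpx4, Prdx1 and Sod1 were called under each of the 17 alternative settings of this comparison. None of these settings changes how reads that match several genes were assigned. How that was done in each series of codes is not given in the sources used here. Gapdh, Ppia and Alb differed between the series as given above. Over all transcripts, Gapdh shares 25.1% of its windows with another gene and Ppia 17.3%, but Alb shares 0%. The part of read assignment and of the series in the changes of Gpx4, Prdx1 and Sod1 was not tested.

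Prdx3 and Prdx5 rose less. Prdx3, the peroxiredoxin of the mitochondrial matrix, was at 134, 135 and 158 in C 8w and at 199, 206 and 197 in MCLI + SALI, a log2 fold change of 0.50 (error 0.15, limma adjusted p = 0.0300). It shares no window with another gene. Prdx5, which works in mitochondria, peroxisomes and cytosol, was at 179, 168 and 233 in C 8w and at 331, 261 and 260.1 in MCLI + SALI, a log2 fold change of 0.56 (error 0.19, limma adjusted p = 0.0419). Its groups did not overlap either, but the gap between 233 and 260.1 was smaller than the spread within each group. Trmt112, the gene overlapping Prdx5, had means of 8.20 ± 0.592 (SD, n = 3) and 18.7 ± 2.33 (SD, n = 3), and its part in the Prdx5 value was not tested. After median-ratio scaling, which brought the median change of all genes from 0.12 to 0.0035, neither passed, with 0.35 for Prdx3 (adjusted p = 0.135) and 0.42 for Prdx5 (adjusted p = 0.144). These were the highest adjusted p over the alternative settings, the lowest being 0.00679 and 0.0204. Both calls were also lost without C 8w replicate 1 or 2 and without any 1 of the MCLI + SALI samples, with an adjusted p between 0.0683 and 0.109 for Prdx3 and between 0.0615 and 0.142 for Prdx5.

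Gpx1, the main glutathione peroxidase of cytosol and mitochondria, went the other way from Gpx4. It was at 3336, 3161 and 4021 in C 8w and at 1876, 1923 and 1827 in MCLI + SALI. Every C 8w sample was above every MCLI + SALI sample, the means were 3506 ± 455 (SD, n = 3) and 1875 ± 48.4 (SD, n = 3), and the log2 fold change was -0.89 (error 0.30, limma adjusted p = 0.0438). Its 3 values in MCLI + SALI lay within 0.07 on the log2 scale. Gpx1 shares no window with another gene. The Gpx1 call was lost when any 1 sample of C 8w or MCLI + SALI was left out, with an adjusted p between 0.0850 and 0.131, and after quantile normalization (adjusted p = 0.106), within a range from 0.00106 to 0.171 over all alternative settings.

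Cat, whose product breaks down peroxide in peroxisomes, was at 1317, 1330.1 and 1218 in C 8w and at 689, 965 and 911 in MCLI + SALI. These groups did not overlap, but the log2 fold change of -0.61 (error 0.24) missed the threshold in limma (adjusted p = 0.0723) in the fit of all 3 groups. It passed when only the 2 groups were compared (adjusted p = 0.0116), and over all alternative settings its adjusted p was between 0.0116 and 0.349. Red cells and their precursors are rich in catalase and Gpx1. Of 7 erythroid markers, 5 reached an FPKM of 1 in any sample, the highest being Hbb-bs at 33.2, and their summed FPKM ranged from 36.8 to 52.3 in C 8w, from 12.7 to 27.2 in C 12w and from 5.64 to 47.6 in MCLI + SALI. The globin genes among them, Hba-a1, Hba-a2, Hbb-bs and Hbb-bt, share between 53.2% and 89.3% of their windows with another gene over all transcripts. Alas2, with 11.5% shared, was highest in C 12w, at 3.24 and 3.39, against 1.60 to 2.97 in C 8w and 0.332 to 1.11 in MCLI + SALI. The sum is thus an uncertain measure of red cells. The part of red cells in the values of Cat and Gpx1 was not tested.

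Sod2, Prdx6 and Sod3 gave overlapping groups. Sod2, the mitochondrial dismutase, was at 66.7, 73.8 and 74.8 in C 8w and at 63.3, 67.2 and 67.8 in MCLI + SALI, a log2 difference of -0.12 with a 95% interval from -0.39 to 0.16. Prdx6, the peroxiredoxin that draws on glutathione, was at 223, 234 and 252 against 216, 265 and 241, a difference of 0.02 with an interval from -0.35 to 0.39. These intervals leave room for a change of up to about 0.39 in either gene. Sod3, the secreted dismutase bound to extracellular matrix, was at 8.64, 7.86 and 7.18 in C 8w and at 3.19, 9.64 and 4.07 in MCLI + SALI. Its interval was wide, from -1.96 to 0.88. The sample with the highest Sod3 of MCLI + SALI, replicate 2, was also the highest of all 8 samples in the summed FPKM of 8 macrophage markers (7 of them at 1 or more in any sample, Itgam below it), at 404 against 121 and 111 in the other two of its group and 131 to 174 in C 8w and C 12w. C 12w replicate 3, with the highest Sod3 of all samples at 62.4, had the lowest macrophage sum of C 8w and C 12w, at 131. The part of macrophages in the Sod3 value was not tested. In such bulk samples fewer cells of a type and less RNA per cell cannot be told apart.

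**Figure D3:**
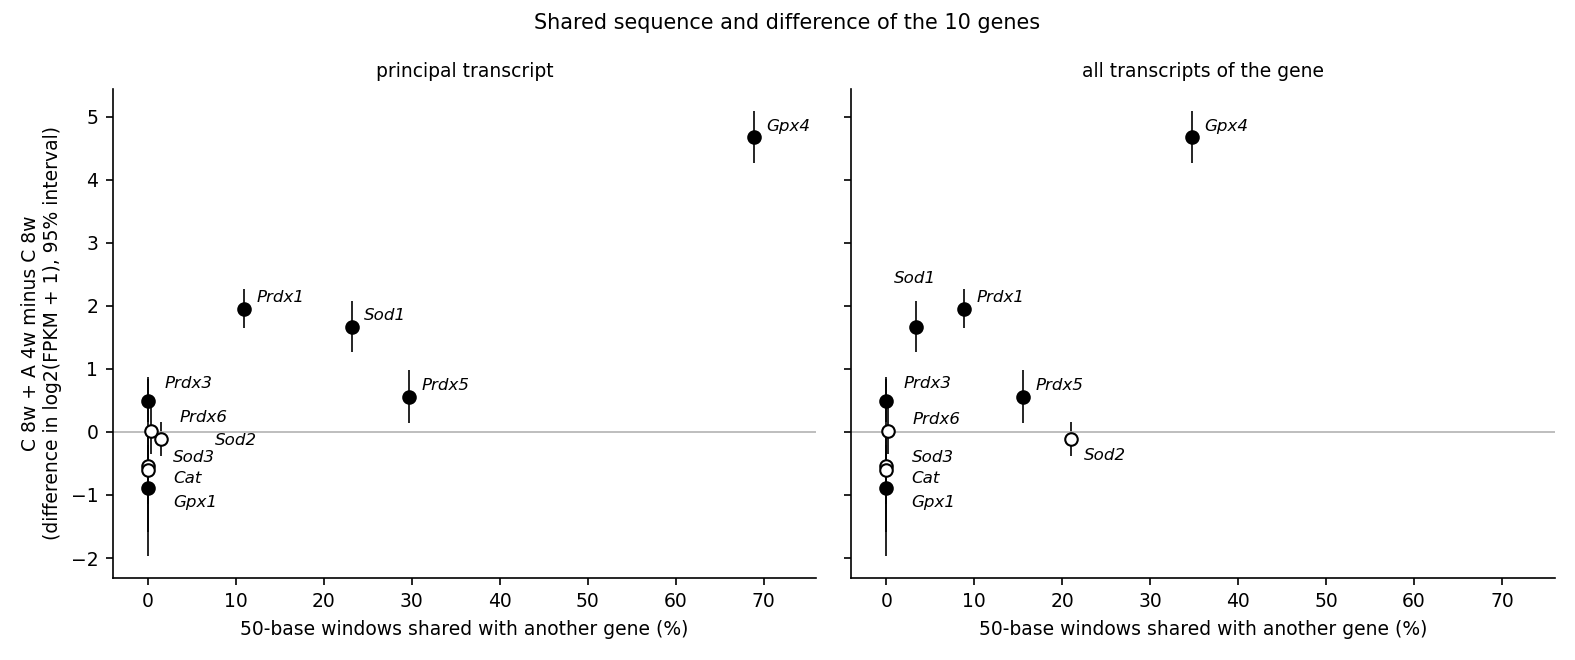
Difference in log2(FPKM + 1) between MCLI + SALI and C 8w (vertical axis, points with 95% intervals, filled for an adjusted p under 0.05) against the share of 50-base windows found in another gene (horizontal axes, percent), counted in the principal transcript (left) and over all transcripts of the gene (right). On the left the 4 genes with over 10% lie above 0, whereas on the right Sod2, at 21.04% and -0.12, is among the 3 genes over 10%, and Sod1 and Prdx1 are not.

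The next comparison set MCLI + SALI against C 12w, mice of the same total time of injury with and without the severe phase. The groups also differ in tissue label (liver and tumor) and in the series of codes, and these cannot be told apart from the severe phase. It shares the MCLI + SALI samples with the comparison above. Sod1, Gpx4, Prdx1, Prdx3 and Prdx5 rose, none fell and 5 did not pass the test. Sod3 was the only one lower at an unadjusted p under 0.05 in limma (-2.01, adjusted p = 0.0559). After median-ratio scaling 6 scavengers were called higher and 1 lower, and after scaling to the same summed FPKM 5 and 1. The lower one was Sod3, at -2.01 (adjusted p = 0.0476) and -2.18 (adjusted p = 0.0454). After quantile normalization Sod3 was not called (adjusted p = 0.052). Of all genes tested 32.8% were called, 17.4% higher and 15.4% lower. These were 1781 higher and 1575 lower genes, and 1125 and 1994 after scaling to the same summed FPKM. For 7 scavengers every MCLI + SALI sample was above both C 12w samples, as for 28.1% of all genes tested. The median log2 fold change was 0.72 over the scavengers and 0.0077 over all genes.

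Gpx4 was at 13.3 and 19.9 in C 12w, below every other sample, and its log2 fold change was 5.47 (error 0.20, limma adjusted p = 3.57e-07). Sod1, at 309 and 425 in C 12w, gave 2.22 (error 0.19, adjusted p = 8.82e-05). Prdx1 was at 222 and 256 in C 12w, much as in C 8w, and gave 1.89 (error 0.15, adjusted p = 5.78e-05). Prdx5 was at 123 and 92.5 in C 12w and gave 1.39 (error 0.21, adjusted p = 0.00165). Prdx3, at 118 and 85.3, gave 0.99 (error 0.17, adjusted p = 0.00309). These 5 genes were called under each of the 17 alternative settings of this comparison.

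Sod2 and Prdx6 were higher in every MCLI + SALI sample than in both C 12w samples without passing the test. Sod2 was at 46.1 and 56.8 in C 12w, a log2 difference of 0.36 (adjusted p = 0.0688), and Prdx6 at 148 and 208, a difference of 0.45 (adjusted p = 0.0916). Cat and Gpx1 overlapped between the groups. For Gpx1 the C 12w samples lay on either side of all MCLI + SALI samples, and for Cat one of them, at 789.9, lay within the MCLI + SALI range and the other, at 1370, above it. Sod3 overlapped through MCLI + SALI replicate 2, at 9.64 against 8.49 in C 12w replicate 2, and without that MCLI + SALI sample its log2 fold change was -2.41 (adjusted p = 0.0423). Without C 12w replicate 2 the log2 fold change of Sod3 was -3.38 (adjusted p = 0.000705), that of Gpx1 0.94 (adjusted p = 0.00572) and that of Cat -0.70 (adjusted p = 0.0334). Without C 12w replicate 3 these became -0.64 (adjusted p = 0.295) for Sod3, -0.28 (adjusted p = 0.302) for Gpx1 and 0.10 (adjusted p = 0.759) for Cat, so that Gpx1 and Cat changed sign with the sample left out. Without it that of Prdx6 was 0.69 (adjusted p = 0.0180) and that of Sod2 0.51 (adjusted p = 0.0283), whereas without C 12w replicate 2 they were 0.20 (adjusted p = 0.367) and 0.21 (adjusted p = 0.256). Over all alternative settings the highest adjusted p was 0.295 for Sod3, 0.742 for Gpx1, 0.759 for Cat, 0.493 for Prdx6 and 0.446 for Sod2. Leaving out a C 12w sample leaves the other alone in its group, and the fit then takes it to vary like the samples of the other groups.

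The last comparison, C 12w against C 8w, is between samples of the same series of codes and asks how the tumor tissue after 12 weeks of MCLI differs from liver after 8 weeks. No scavenger rose, and 0 were higher at an unadjusted p under 0.05 in limma. The 4 that fell were Gpx1, Prdx5, Gpx4 and Sod2. Of all genes tested 19.2% were called, 12.2% higher and 6.98% lower. The 1247 higher and 715 lower genes became 968 and 1077 after median-ratio scaling and 893 and 1011 after quantile normalization. The median log2 fold change was -0.49 over the scavengers and 0.12 over all genes. For 7 of the 10, both C 12w samples were below all C 8w samples, and 19.6% of all genes tested were placed so.

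Gpx1 was at 2278 and 975 in C 12w against at least 3161 in C 8w, a log2 fold change of -1.23 (error 0.34, limma adjusted p = 0.0375). Prdx5 was at 123 and 92.5 against at least 168, and gave -0.83 (error 0.21, adjusted p = 0.0281). Gpx4 was at 13.3 and 19.9 against at least 24.9, a change of -0.79 (error 0.20, adjusted p = 0.0292). Sod2, at 46.1 and 56.8 against at least 66.7, changed by -0.48 (error 0.13, adjusted p = 0.0396). None of these calls held in all 18 alternative settings. Without C 12w replicate 3 Gpx1 was at -0.61 (adjusted p = 0.0682) and Prdx5 at -0.63 (adjusted p = 0.103), and without C 12w replicate 2 they were at -1.84 (adjusted p = 0.00055) and -1.04 (adjusted p = 0.0103). For Gpx4 and Sod2 the call was instead lost without C 12w replicate 2, at -0.51 (adjusted p = 0.0719) and -0.33 (adjusted p = 0.101). No scavenger was called in limma when only these groups were fitted, or when C 8w replicate 1 or replicate 3 was left out. Even so, 6, 6 and 4 of the 10 then had an unadjusted p under 0.05. Calls over all genes also fell in these fits, to 1433 of 10244, 676 of 10160 and 718 of 10124, against 1962 in the main fit. A count of 0 among 10 genes cannot be told apart from that general loss of calls.

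Sod1, Prdx3 and Prdx6 were also lower in both C 12w samples than in all C 8w samples, with log2 differences of -0.55 (adjusted p = 0.0764), -0.49 (adjusted p = 0.0713) and -0.42 (adjusted p = 0.125). Without C 12w replicate 2 these were -0.32 (adjusted p = 0.184), -0.73 (adjusted p = 0.00962) and -0.18 (adjusted p = 0.429). Without C 12w replicate 3 they were -0.78 (adjusted p = 0.0241), -0.26 (adjusted p = 0.303) and -0.67 (adjusted p = 0.0358). After median-ratio scaling Sod1 and Prdx6 passed, at -0.69 (adjusted p = 0.0434) and -0.56 (adjusted p = 0.0427), within ranges over all settings from 0.0241 to 0.469 and from 0.0358 to 0.631. The groups overlapped for the other 3 genes. Prdx1 differed by 0.07 (interval -0.28 to 0.42, adjusted p = 0.771), which became -0.06 after median-ratio scaling. Cat differed by -0.31 (interval -0.91 to 0.30, adjusted p = 0.422) and Sod3 by 1.47 (interval -0.12 to 3.05, adjusted p = 0.159). Without C 12w replicate 2 the difference of Sod3 was 2.84 (adjusted p = 0.00249), and without C 12w replicate 3 it was 0.097 (adjusted p = 0.908). These were the lowest and the highest adjusted p over all settings.

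The pair of C 12w samples differed more for Sod3, Gpx1 and Cat than for the other scavengers. Sod3 was at 8.49 in replicate 2, within the range of C 8w and MCLI + SALI, and at 62.4 in replicate 3, the highest of all samples. This difference of 2.74 on the log2 scale exceeded that of 99.5% of the genes tested. Gpx1 was lower in replicate 3 by 1.22, more than 95.5% of genes, and Cat was higher in it, with 1370.4 against 789.9. The median difference of all genes tested between these samples was 0.29. Of the 6 bile duct markers 5 reached an FPKM of 1, Cftr being near 0, and their sum was 28.2 in replicate 2 and 339 in replicate 3, of which Spp1 held 311, against 9.51 to 15.2 in C 8w and 26.3 to 32.8 in MCLI + SALI. The 6 stellate cell markers summed to 19.9 and 36.9, against 11.5 to 15.2 in C 8w and 9.26 to 19.1 in MCLI + SALI. They did not move together. Col3a1, at 8.85 and 15.5, and Col1a1, at 2.97 and 8.29, were above every sample of the other groups. Lrat, at 2.78 and 2.01, was below all of those, and Des, at 1.18 and 1.25, was within the range of C 8w. The 7 hepatocyte markers summed to 13813 in replicate 2 and 9112 in replicate 3, against 9218 to 11654 in C 8w. Among them Cps1 was at 886 and 356, but Fgb was at 753 and 607 and Hnf4a at 104 and 99.2. The part of these markers in the values of Sod3, Gpx1 and Cat was not tested.

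Across the 8 samples the 10 genes did not move as a single block. As a description only, since the samples share their groups and their series of codes, Pearson's r of log2(FPKM + 1) was 0.991 between Sod1 and Gpx4, 0.986 between Gpx4 and Prdx1 and 0.967 between Prdx3 and Prdx5. It was 0.917 between Sod2 and Prdx6, but -0.244 between Gpx1 and Gpx4 and -0.628 between Cat and Prdx1. Among the 3968 other genes with a mean FPKM of at least 10, the pattern of Gpx4 was most like that of Mrps36 (r = 0.998), that of Prdx1 most like Ppp1cc (r = 0.998) and that of Sod1 most like Fcf1 (r = 0.994). Mrps36, Ppp1cc and Fcf1 had a group mean of at least 10 in MCLI + SALI alone, so they passed this limit only through that group, and the limit favours genes high there. They share 17.3%, 40.0% and 24.4% of their windows with another gene, counted over all transcripts. Prdx5 was closest to Ndufb11 (r = 0.995), Prdx3 to Cript (r = 0.996), Cat to Hexim1 (r = 0.995), Gpx1 to Mgmt (r = 0.994), Sod3 to Slc40a1 (r = 0.986), Prdx6 to Anp32a (r = 0.967) and Sod2 to Tmem143 (r = 0.966).

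Promoters were searched for short motifs. The RefSeq promoter table (GRCm38.p6, 250 bases before to 50 after each start) held 8 of the 10 genes, all but Sod3 and Prdx6. The core of the antioxidant response element, TGACNNNGC on either strand, is the site bound by Nrf2, which is known to switch on antioxidant genes. It occurred in the windows of Prdx1 and Sod1 and in no other of the 8, also not at any listed start of Gpx4, which rose with them, and in 12.4% of all 32851 promoters of the table. The TATA box TATAAA was found in Prdx1, Sod1 and Prdx3 (13.6% of all promoters), the CCAAT box in Cat, Gpx4, Sod1 and Sod2 (37.4%), and the GC box GGGCGG in all 8 (35.7%). The 8 genes held 11 promoters and were counted by gene, whereas the percentages are of single promoters, so the counts and percentages are not alike. The motifs are matches of letters and not shown to be bound. The 250 bases before the start are shown for the pair that holds the first motif, with the TGACNNNGC match on the reverse strand in capitals, for Prdx1 at chr4:116685349-116685598 and for Sod1 at chr16:90220512-90220761, both on the plus strand.
Prdx1: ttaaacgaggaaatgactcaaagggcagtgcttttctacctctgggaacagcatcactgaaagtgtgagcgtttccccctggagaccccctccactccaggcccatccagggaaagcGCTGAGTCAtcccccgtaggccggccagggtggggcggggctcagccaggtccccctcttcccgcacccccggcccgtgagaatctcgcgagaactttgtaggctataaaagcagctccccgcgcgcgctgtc
Sod1: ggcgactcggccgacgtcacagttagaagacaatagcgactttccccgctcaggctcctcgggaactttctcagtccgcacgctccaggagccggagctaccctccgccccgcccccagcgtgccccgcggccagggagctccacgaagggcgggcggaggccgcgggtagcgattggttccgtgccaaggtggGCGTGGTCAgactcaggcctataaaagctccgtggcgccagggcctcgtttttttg

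The genes around the scavengers were followed in 7 lists, described by their counts. Of the 6 other peroxidases and peroxiredoxins tested (of 11 in the list), 3 rose and 1 fell between C 8w and MCLI + SALI, where 25.3% of all genes tested were called higher and 14.1% lower. Gpx2, the glutathione peroxidase of epithelia, was at 10.1, 16.1 and 68.8 in C 8w and at 117, 177 and 153 in MCLI + SALI (log2 fold change 2.64, limma adjusted p = 0.00759). Gpx3, the secreted form, went from 8.68 ± 1.50 (SD, n = 3) to 49.6 ± 15.4 (SD, n = 3), with a log2 fold change of 2.35 (adjusted p = 0.000479). Prdx4, the peroxiredoxin of the endoplasmic reticulum, fell by 0.82 (adjusted p = 0.00286), so that its direction was the opposite of that of Prdx1, Prdx3 and Prdx5. In limma 0 genes of this list were called between C 12w and C 8w, where 19.2% of all genes were, and 1 had an unadjusted p under 0.05.

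**Figure D4:**
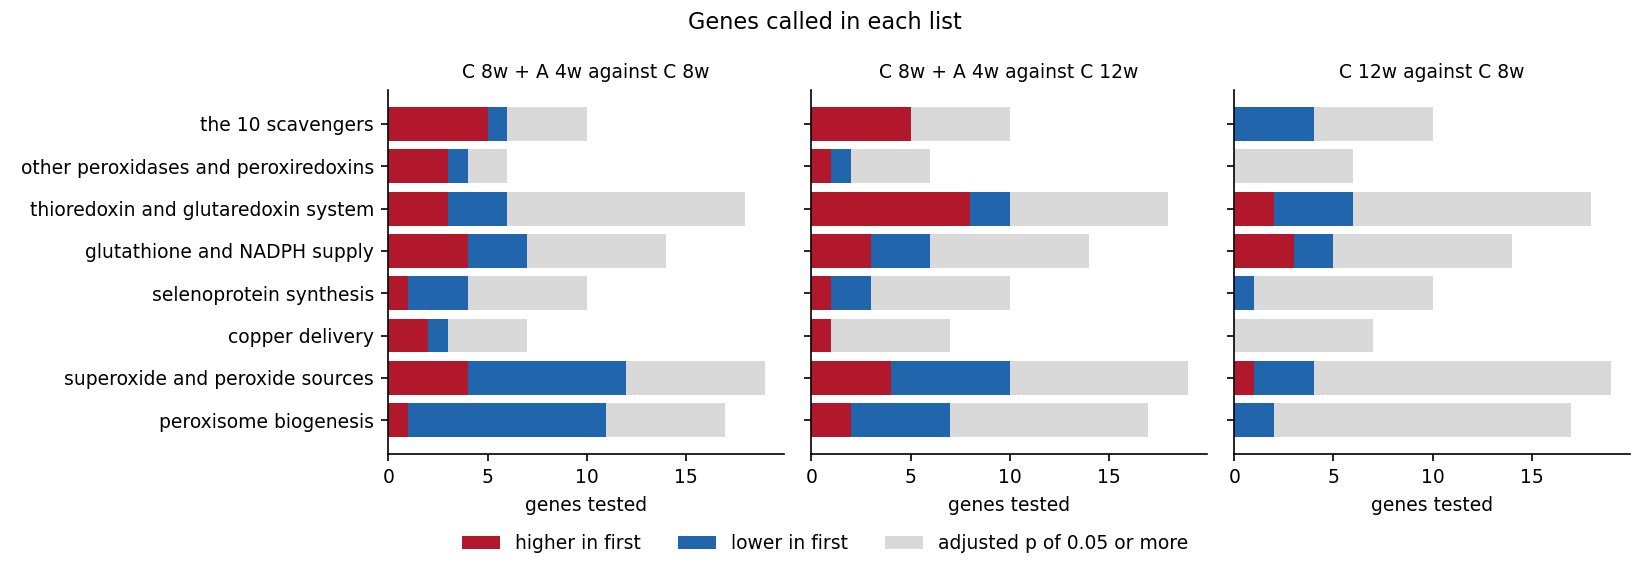
Number of genes tested in each list (horizontal axes) for the 3 comparisons, divided into those called higher in the group named first, those called lower and those with an adjusted p of 0.05 or more. The 10 scavengers have 5 higher and 1 lower gene in the comparison of MCLI + SALI with C 8w, and the 17 peroxisome biogenesis genes 1 higher and 10 lower.

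Thioredoxin recharges peroxiredoxins, and 18 genes of the thioredoxin and glutaredoxin system were tested. Between C 8w and MCLI + SALI 3 rose and 3 fell, beside 39.4% of all genes called in either direction. Srxn1, the enzyme that rescues overoxidized peroxiredoxins, was at 132, 158 and 213 in C 8w and at 782, 709 and 693 in MCLI + SALI, well apart (log2 fold change 2.14, limma adjusted p = 6.78e-05), and it shares no window with another gene. Glrx3, a glutaredoxin of iron-sulfur cluster handling, rose by 4.01 (adjusted p = 1.40e-07) from 3.08 ± 0.316 (SD, n = 3), with 15.1% of its windows shared over all transcripts. Msrb1, a selenoprotein that repairs oxidized methionine, fell by 0.98 (adjusted p = 0.00141). Between C 12w and C 8w 2 rose and 4 fell, beside 12.2% and 6.98% of all genes. The largest changes were in Txnip, the inhibitor of thioredoxin, which fell by 1.83 (adjusted p = 0.0112), and Glrx5, a mitochondrial glutaredoxin, which fell by 1.00 (adjusted p = 0.0169).

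Of the 14 genes of glutathione and NADPH supply, 4 rose and 3 fell in MCLI + SALI against C 8w, beside 25.3% and 14.1% of all genes tested, and 3 rose and 2 fell in C 12w, beside 12.2% and 6.98%. Slc7a11, the cystine importer that feeds glutathione synthesis, was at 45.8, 74.6 and 72.5 in C 8w and at 108, 179 and 172 in MCLI + SALI (log2 fold change 1.24, limma adjusted p = 0.0409). Nnt, the mitochondrial source of NADPH, fell by 1.27 (adjusted p = 0.000544), with 47.0% of its windows shared by that count. Oplah, which returns oxoproline to glutamate, fell by 1.02 in MCLI + SALI (adjusted p = 0.000227) and by 0.91 in C 12w (adjusted p = 0.00345). Chac1, which degrades glutathione, was under 1 in all C 8w samples and at 4.31 and 27.4 in C 12w (log2 fold change 2.82, adjusted p = 0.0265).

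Gpx1, Gpx4 and Msrb1 need selenium and Sod1 needs copper. Of 10 selenoprotein synthesis genes, 1 rose and 3 fell between C 8w and MCLI + SALI, where 25.3% of all genes were called higher and 14.1% lower. The 3 were Scly, which frees selenium from selenocysteine (-1.14, limma adjusted p = 0.000314), Sepsecs, which makes selenocysteine on its transfer RNA (-0.64, adjusted p = 0.00890), and Sephs2, which makes the selenium donor (-0.48, adjusted p = 0.0245). Sephs2, with 34.9% of its windows shared by that count, was the only gene of this list called in C 12w, at -0.58 (adjusted p = 0.0351), beside 19.2% of all genes called there. Of 7 copper delivery genes, 2 rose and 1 fell in MCLI + SALI, to be read against the same 25.3% and 14.1%. Ccs, the chaperone that loads copper into Sod1, fell while Sod1 rose. It was at 117, 104 and 107 in C 8w, at 56.7, 47.4 and 51.1 in MCLI + SALI and at 89.0 and 51.4 in C 12w, with a log2 fold change of -1.07 (error 0.19, adjusted p = 0.00334) between the first 2. Cox17 and Atp7a, which carry copper to cytochrome oxidase and out of the cytosol, rose by 0.87 and 0.85 (adjusted p = 0.00297 and 0.00413). Both were low, with means in C 8w and MCLI + SALI of 3.28 and 6.86 for Cox17 and of 0.778 and 2.20 for Atp7a. In limma 0 copper delivery genes were called between C 12w and C 8w, against the same 19.2% of all genes, and 2 had an unadjusted p under 0.05, both lower.

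Among 19 tested sources of superoxide and peroxide, 4 rose and 8 fell between C 8w and MCLI + SALI, with 25.3% of all genes tested called higher and 14.1% lower. Hao1, the peroxisomal glycolate oxidase of hepatocytes, was at 118, 122 and 98.7 in C 8w and at 9.62, 26.4 and 21.5 in MCLI + SALI (log2 fold change -2.60, limma adjusted p = 0.000389). Hao2, a related oxidase of long hydroxy acids, was at 32.4, 22.5 and 12.9 and at 0.321, 0.157 and 0.679 (-4.02, adjusted p = 4.2e-05). Maoa, the amine oxidase of the outer mitochondrial membrane, rose from 9.61 ± 2.70 (SD, n = 3) to 58.8 ± 14.5 (SD, n = 3), by 2.50 (adjusted p = 0.000220), and was also higher in C 12w, by 1.23 (adjusted p = 0.0254). Ddo, a peroxisomal oxidase of D-aspartate, fell by 0.93 in C 12w (adjusted p = 0.0342), where 1 gene of the list rose and 3 fell, beside 12.2% and 6.98% of all genes.

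Catalase works inside peroxisomes, and of 17 peroxisome biogenesis genes 1 rose and 10 fell between C 8w and MCLI + SALI, beside 25.3% and 14.1% of all genes tested, with a median log2 fold change of -0.37 against 0.12 over all genes. Pex6, part of the machine that recycles the import receptor, was at 30.1, 28.4 and 31.1 in C 8w and at 12.6, 15.5 and 13.1 in MCLI + SALI (-1.07, limma adjusted p = 0.00101). Abcd3, the most abundant transporter of the peroxisomal membrane, and Pex7, an import receptor, fell by 0.89 and 0.69 (adjusted p = 0.00479 and 0.000843). In C 12w only Pex11a and Pex3 were called, both lower than in C 8w, at -0.94 and -0.45 (adjusted p = 0.0189 and 0.0253), where 6.98% of all genes were called lower and 12.2% higher.

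Against C 12w, the MCLI + SALI samples gave 8 higher and 2 lower genes in the thioredoxin and glutaredoxin system, 3 and 3 in glutathione and NADPH supply, 4 and 6 among the sources of superoxide and peroxide, and 2 and 5 in peroxisome biogenesis. The counts were 1 and 1 among the other peroxidases and peroxiredoxins, 1 and 2 in selenoprotein synthesis, and 1 and 0 in copper delivery, where 1 gene was lower at an unadjusted p under 0.05 in limma. Over all genes tested 17.4% were called higher and 15.4% lower in this comparison.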

How the data were processed

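RNA sequencing values of 8 samples were used, of C 8w, C 12w and C 8w + A 4w (MCLI + SALI), assigned by their treatment labels. The authors deposited FPKM values, scaled to gene length and to the mapped fragments of each sample, in 1 table of 22504 Ensembl identifiers. Per the labels, their processing notes name Bowtie 0.12.2 and the build mm8, with no role given, and the quantifier and annotation are not given in the sources used here. The table held 0 columns of other samples. It holds no counts, so depth and counting error are unknown.

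Genes that reached an FPKM of 1 in 4 or more samples were compared as log2(FPKM + 1) in R 4.3.3 with limma 3.58.1 (1 fit of all 3 groups, eBayes with a trend, two-sided, Benjamini-Hochberg adjustment over 10244 genes, threshold 0.05). Fold changes on this scale understate those of low genes. The labels do not name the animals, which the study describes as individual mice, and p-values measure only the spread between these samples. The test was checked on simulated data. Shared sequence was computed with Python 3.11.15 from GENCODE M21, and no coordinates of the table were used.

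The genes and lists were chosen with earlier results of these data known. All 10 scavengers and Fah are named, and from each list up to 3 called genes with the largest change against C 8w in MCLI + SALI and up to 2 in C 12w, and for each scavenger the gene of the most similar pattern. Gapdh, Ppia, Alb, Trmt112 and single markers were named after their values were seen. Of the 4 listed symbols without a match, 2 were other names of listed genes. The alternatives left out each sample in turn, fitted only 2 groups, dropped the trend or the floor, lowered the floor or the pseudocount to 0.1, scaled the values in 3 other ways, or added a replicate block. Scaling on genes with at most 2% shared sequence was chosen after seeing the data.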

Additional observations from a re-analysis of the deposited data

How the results depend on the processing

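With 1 sample left out in turn, the number of scavengers called was between 3 and 7 for MCLI + SALI against C 8w, between 5 and 8 for MCLI + SALI against C 12w and between 0 and 4 for C 12w against C 8w. In the first comparison it was 3 without C 8w replicate 1 or 2 and without any of the MCLI + SALI samples, where Gpx1, Prdx3 and Prdx5 lost their calls. In the second the highest count came without C 12w replicate 2, a fit that leaves the other C 12w sample alone in its group. Between C 12w and C 8w it was 1 without a floor, 2 after scaling to the same summed FPKM, 2 without MCLI + SALI replicate 2 or 3, 1 without C 8w replicate 2, and 0 when only the 2 groups were fitted or without C 8w replicate 1 or 3 (6, 6 and 4 at an unadjusted p under 0.05 in limma). Apart from the replicate block, the other settings kept each count within 1.5 times. The number of all genes called between C 12w and C 8w was 676, 934 and 718 without C 8w replicate 1, 2 and 3, against 1962. It was 1433 when only these groups were fitted. For MCLI + SALI it was 2460 without C 8w replicate 1, against 4034, and 1996 when only it and C 12w were fitted, against 3356.

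The numbers 2 and 3 occur in the labels of both MCLI groups, on different mice. Deviations of same-numbered samples correlated at -0.189. Only the numbers 2 and 3 occur in both groups, so this value cannot decide whether the numbers pair the samples. With a replicate block over these 4 samples 0 scavengers were called in limma, 3 had an unadjusted p under 0.05, and 252 genes were called in all.

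Of 520 values of single scavengers under an alternative, 423 kept direction and side of the threshold, 61 lost the call, 25 gained it and 11 changed sign, all 11 in values not called. Prdx6 between MCLI + SALI and C 8w became -0.12 with median-ratio scaling, -0.095 with that scaling on genes of little shared sequence and -0.068 with the same summed FPKM, and lay between -0.052 and 0.097 with single samples left out. Prdx1 between C 12w and C 8w became -0.064 and -0.078 with the same 2 median-ratio scalings and lay between -0.032 and 0.17 with single samples left out. Such values of Cat lay between -0.70 and 0.099 for MCLI + SALI against C 12w and between -0.70 and 0.090 for C 12w against C 8w, and those of Gpx1 between -0.28 and 0.94 for MCLI + SALI against C 12w. Each change of sign of Cat and Gpx1 came with the loss of 1 C 12w sample. The cause was not tested. Depth is unknown, so what it limits could not be given.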

Other observations

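Log2 changes between MCLI + SALI and C 8w were set beside shared sequence, counted here over all transcripts of a gene. The groups of genes below hold slightly fewer genes than the 10244 tested. Of the 6318 genes with at most 2% shared windows, 4.45% had a log2 rise of 1 or more and 4.43% an equal fall or more. Of the 2794 genes with over 2% and up to 20%, 7.55% had such a rise and 3.51% such a fall. Of the 1117 genes with over 20%, 17.2% had such a rise and 10.7% such a fall. The shares called in limma were 36.2%, 42% and 51% in these groups of genes.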
